A study of Mus musculus with 12 samples.

Results

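The metabotropic glutamate receptors of the mouse cortex were examined in sorted Ebf2-EGFP+ and Ebf2-EGFP- cells, as genes of the deposited expression table that carry a Grm symbol. Of the 4859 listed coding genes, 5 are described, namely Grm2, Grm3, Grm4, Grm5 and Grm8, and other genes of the family were not analysed here. All 5 had a value above 0 in every library, and no filter on low values was applied to them. The table lists genes that the authors selected for a difference between the populations in these same libraries, so that the presence of a receptor in it is not an independent finding.

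Cells came from the cerebral cortex of Tg(Ebf2-EGFP)FB58Gsat embryos, a transgenic line that makes green fluorescent protein under the regulatory sequence of Ebf2, and were separated by fluorescence-activated sorting on embryonic days E11.5, E13.5 or E15.5. Each of the 6 groups, Ebf2-EGFP+ and Ebf2-EGFP- cells at each stage, had 2 libraries, and all groups carried the same transgene without further treatment. Each preparation pooled several embryos. By the study's account, the fluorescent cells were mainly preplate neurons, the first neurons of the cortex, at E11.5, and mostly Cajal-Retzius neurons, the Reelin-secreting cells of layer 1, at E15.5, while the cells without fluorescence held the progenitors and, later, the cortical plate neurons.

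Metabotropic glutamate receptors are class C G protein-coupled receptors that bind glutamate in a large extracellular domain and work as dimers. Group I receptors, here Grm5, couple to Gq, activate phospholipase C and release calcium from internal stores, and are anchored on the postsynaptic side by Homer proteins. Group II (Grm2 and Grm3) and group III (Grm4 and Grm8) receptors couple to Gi/o, lower cyclic AMP and, at many nerve endings, reduce transmitter release. Grm3 is also known from astrocytes, and Grm5 is known from the developing cortex before synapses are mature.

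Levels are given as FPKM, fragments per kilobase of transcript scaled to the mapped fragments of the library, which corrects for transcript length, so that receptors can be set against each other on this scale. Differences are log2 differences between group means of log2(FPKM + 1) from a single limma fit to all 12 libraries, with the standard error (SE) of the fit and a p-value adjusted over the 4859 genes, and a gene was called at an adjusted p under 0.05. The pseudocount of 1 understates the change of low genes, so ratios of mean FPKM are given as well. Libraries of the same group correlated across genes with Pearson's r from 0.981 to 0.992, and the FPKM of the listed genes summed to between 111136 and 146703 per library. The study gives an average number of reads over its samples but not the depth of each library, and no counting interval could be given.

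Marker lists were summed to describe the sorted cells. Only listed genes could be summed, and these were selected for a difference between the populations in the same libraries. The Cajal-Retzius list also holds Ebf2, whose regulatory sequence drives the reporter. The sums are therefore not an independent check of the sort. The summed FPKM of 7 Cajal-Retzius markers (7 of 7 in the table) was 294 to 319, 178 to 231 and 524 to 1087 in Ebf2-EGFP+ cells at the 3 stages and 6.56 to 18.1 in any library of Ebf2-EGFP- cells. The 7 radial glia markers (7 of 7) summed to 406 to 430, 200 to 220 and 86.3 to 149 in Ebf2-EGFP+ cells and to 1328 to 1610, 1035 to 1552 and 439 to 794 in Ebf2-EGFP- cells. Subplate markers (4 of 5) went from 165 to 187 at E11.5 to between 65 and 89.3 later in Ebf2-EGFP+ cells. Ebf2-EGFP- libraries had 12.23 to 12.55, 33.3 to 38.3 and 27.65 to 48.87 over the 3 stages, below the other population throughout. Intermediate progenitor markers (5 of 5) were higher in E11.5 Ebf2-EGFP+ cells, at 231 to 249.5 against 68.3 to 73.9. They were lower later, at 95.8 to 132 against 284 to 380 and then 22.2 to 38.5 against 145.5 to 253.9. Cell cycle markers (6 of 6) summed to 229 to 256 in E11.5 Ebf2-EGFP+ cells against 826.5 to 945.7. Cortical plate markers (6 of 6) did not set the populations apart throughout: they stood at 188 to 244, 873 to 877 and 628 to 974 in Ebf2-EGFP+ cells and at 51.1 to 56.4, 458 to 571 and 735 to 893 in Ebf2-EGFP- cells. Meninges or fibroblast markers (6 of 6) went from 42.9 to 48.5 at E11.5 to 1.13 to 1.84 at E13.5 in Ebf2-EGFP+ cells and from 112 to 131 to 3.69 to 5.60 in Ebf2-EGFP- cells, and interneuron or ganglionic eminence markers (8 of 8) from 13.4 to 16.4 to 3.38 to 5.11 and from 182 to 234 to 64.4 to 65.4. Erythroid markers (4 of 6) summed to 1306 to 2752 in E11.5 Ebf2-EGFP- cells against 32.9 to 97.1 in the Ebf2-EGFP+ cells, and Hbb-y, Hbb-bh1 and Hba-x were listed at 0 in E15.5 Ebf2-EGFP+ cells. Their part in the receptor differences was not tested. In these bulk libraries, fewer cells that express a receptor and less RNA of it per cell cannot be told apart.

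The group II genes, which held the largest share of receptor signal in Ebf2-EGFP+ cells, are shown first with the sequence around their start sites. Both were called higher at E15.5 than at E13.5 in these cells, as were Grm4 and Grm5, with the limits for Grm2 given below. The reporter carries the regulatory sequence of Ebf2, a member of the early B-cell factor family. Binding of such a factor to these windows was not tested. Sequences are from RefSeq (GRCm38.p6), from 250 bases before to 50 after the annotated start, 5′ to 3′ on the strand of the gene, and capitals mark a match to the core of the early B-cell factor motif, CCCNNGGG, searched on both strands. Of the 5 receptors, 3 had an entry in the sequence table, and Grm4 and Grm5 are given by name only. Grm8, a group III gene with a different course, is set beside them for contrast with the outermost of its 3 annotated starts.
Grm2, chr9:106656060-106656359, minus strand: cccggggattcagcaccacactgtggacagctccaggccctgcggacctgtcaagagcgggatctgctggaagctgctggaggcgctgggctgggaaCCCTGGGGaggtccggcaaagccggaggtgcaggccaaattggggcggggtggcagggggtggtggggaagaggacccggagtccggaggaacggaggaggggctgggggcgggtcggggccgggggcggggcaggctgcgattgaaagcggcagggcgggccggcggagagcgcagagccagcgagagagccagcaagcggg
Grm3, chr5:9725303-9725602, minus strand: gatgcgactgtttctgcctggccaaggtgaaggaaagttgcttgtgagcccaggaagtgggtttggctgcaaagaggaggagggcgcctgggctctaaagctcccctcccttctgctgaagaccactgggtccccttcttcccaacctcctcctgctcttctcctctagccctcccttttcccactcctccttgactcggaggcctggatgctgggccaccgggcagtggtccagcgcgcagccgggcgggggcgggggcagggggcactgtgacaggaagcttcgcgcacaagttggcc
Grm8, chr6:28135097-28135396, minus strand: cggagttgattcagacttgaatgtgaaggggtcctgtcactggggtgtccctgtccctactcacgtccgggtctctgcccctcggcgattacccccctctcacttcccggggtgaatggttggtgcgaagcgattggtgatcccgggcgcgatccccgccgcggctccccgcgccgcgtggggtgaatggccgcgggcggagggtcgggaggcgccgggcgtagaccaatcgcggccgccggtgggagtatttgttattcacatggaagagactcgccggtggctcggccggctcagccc

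The Grm2 window held 1 match to the core, at position -153 from the start, while the Grm3 window and the 3 Grm8 windows held none. A match to this core was present in 13.7% of the 32851 promoters of the same length in the sequence table. The promoters were not matched in GC content to the receptor windows. The shares given here are therefore not those of windows with a like GC content. Grm2 also held 4 GC boxes (GGGCGG, present in 35.7% of promoters), Grm3 held 2 that adjoin each other, and the outermost Grm8 window held 1. No TATA box (TATAAA, present in 13.6% of promoters) was found in these windows, and an E-box (CANNTG, present in 72.3% of promoters) was found in the outermost Grm8 window but in neither group II window. The GC content was 72% for Grm2, 63.7% for Grm3 and 67% for Grm8, against a median of 52.7% over all promoters.

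Grm2, a presynaptic Gi/o receptor of glutamatergic neurons (chr9:106643095-106656082, GRCm38, minus strand, a compact gene of 12988 bases), had the highest mean of the 5 receptors in Ebf2-EGFP+ cells at all 3 stages, although Grm3 was above it in E15.5 replicate 2. Its FPKM in the Ebf2-EGFP+ libraries was 9.37 and 11.8 at E11.5, 6.36 and 5.30 at E13.5, then 10.7 and 9.24 at E15.5. The Ebf2-EGFP- libraries had 0.244 and 0.167 at E11.5, 0.450 and 0.603 at E13.5, then 2.83 and 5.75 at E15.5. Stage by stage the populations were apart, with Ebf2-EGFP+ cells higher, but the higher E15.5 Ebf2-EGFP- library was above the lower E13.5 Ebf2-EGFP+ library. The ratio of mean FPKM between the populations narrowed from 51.5 at E11.5 through 11.1 at E13.5 to 2.32 at E15.5.

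On the log2 scale the Grm2 difference between the populations was 3.26 (SE 0.24, adjusted p = 6.48e-07) at E11.5, 2.16 (SE 0.24, adjusted p = 1.92e-05) at E13.5 and 1.11 (SE 0.24, adjusted p = 0.00237) at E15.5. The last value was 0.70 (adjusted p = 0.0223) without E15.5 Ebf2-EGFP- replicate 1. The change of the difference from E11.5 to E15.5 was -2.15 (SE 0.34, adjusted p = 0.000341). The Ebf2-EGFP+ means of E11.5 and E15.5 were 10.6 and 9.97 FPKM, whereas in the cells without fluorescence Grm2 rose by 1.74 (SE 0.24, adjusted p = 0.000289) from E13.5 to E15.5. Over the same interval the cortical plate markers of these cells went from 458 to 571 to 735 to 893 summed FPKM, with 873 to 877 and 628 to 974 in Ebf2-EGFP+ cells, and their part in the rise was not tested.

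Within Ebf2-EGFP+ cells Grm2 fell by 0.76 from E11.5 to E13.5 (SE 0.24, adjusted p = 0.0185) and rose by 0.69 from E13.5 to E15.5 (SE 0.24, adjusted p = 0.0396). The fall lost its call under median-of-ratios scaling of the libraries (-0.56, adjusted p = 0.0765), without E11.5 Ebf2-EGFP+ replicate 2 (-0.61, adjusted p = 0.13) and without E13.5 Ebf2-EGFP+ replicate 2 (-0.65, adjusted p = 0.11). The rise lost its call with a pseudocount of 0.1 (0.77, adjusted p = 0.0707) and when any single library of E13.5 or E15.5 Ebf2-EGFP+ cells or of either E11.5 population was left out, with adjusted p from 0.0515 to 0.17. The longest overlap of an exon of Grm2 with an exon of the antisense gene Gm28111 is 470 bases. The library kit is not stated to keep strand, so that reads of the 2 genes cannot be told apart where exons overlap.

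Grm3, the other group II receptor (chr5:9485541-9725170, minus strand), was low until E15.5. FPKM in Ebf2-EGFP+ cells was 1.37 and 1.01 at E11.5, 0.278 and 0.254 at E13.5, then 5.82 and 9.92 at E15.5. The Ebf2-EGFP- libraries gave 0.296 and 0.379 at E11.5, 0.216 and 0.167 at E13.5, then 0.774 and 1.48 at E15.5. The populations did not overlap at any stage, yet at E13.5 all 4 libraries were within 0.167 to 0.278, and the gap was widest at E15.5.

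The Grm3 difference between the populations was 2.04 (SE 0.21, adjusted p = 1.7e-05) at E15.5, a 7.0-fold ratio of mean FPKM, against 0.70 (SE 0.21, adjusted p = 0.00883) at E11.5 and 0.09 (SE 0.21, adjusted p = 0.717) at E13.5, where the 95% confidence interval ran from -0.38 to 0.55. Its difference widened by 1.34 (SE 0.30, adjusted p = 0.00284) from E11.5 to E15.5, and with a pseudocount of 0.1 this change missed the threshold (1.17, adjusted p = 0.0646). In Ebf2-EGFP+ cells Grm3 rose by 2.77 (SE 0.21, adjusted p = 9.32e-06) from E13.5 to E15.5, the largest stage change of any of the 5 receptors in either population on this scale. It had fallen by 0.78 (SE 0.21, adjusted p = 0.00821) from E11.5 to E13.5. Without E11.5 Ebf2-EGFP+ replicate 1, the E11.5 difference was 0.59 (adjusted p = 0.0682) and that fall -0.67 (adjusted p = 0.0656). The Ebf2-EGFP- cells showed a rise of 0.82 (SE 0.21, adjusted p = 0.00638) from E13.5 to E15.5, which was 0.57 (adjusted p = 0.0609) without E15.5 Ebf2-EGFP- replicate 2. Aif1, the 1 microglial marker of 6 in the table, stood at 2.87 to 2.92 FPKM in E15.5 Ebf2-EGFP+ cells and 0.626 to 0.773 in E15.5 Ebf2-EGFP- cells, and its relation to Grm3 was not tested.

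Grm5, a group I receptor (chr7:87584168-88134907, plus strand), was higher at each later stage in both populations. FPKM in Ebf2-EGFP+ cells was 0.246 and 0.290 at E11.5 and climbed to 3.79 and 3.03 at E13.5 and then to 8.61 and 7.63 at E15.5. Ebf2-EGFP- cells went from 0.0274 and 0.0772 to 1.51 and 1.66 and then to 3.55 and 3.91. In both populations no library of a later stage overlapped an earlier stage, and the Ebf2-EGFP+ libraries were the higher at each stage.

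Both steps of Grm5 were called in both populations. The log2 rise from E11.5 to E13.5 was 1.79 (SE 0.15, adjusted p = 2.66e-06) in Ebf2-EGFP+ and 1.30 (SE 0.15, adjusted p = 2.26e-05) in Ebf2-EGFP- cells, and from E13.5 to E15.5 it was 1.05 (SE 0.15, adjusted p = 0.0003) and 0.87 (SE 0.15, adjusted p = 0.000629). The population difference was 0.77 (SE 0.15, adjusted p = 0.000633) at E13.5 and 0.94 (SE 0.15, adjusted p = 0.000256) at E15.5, with ratios of mean FPKM of 2.15 and 2.17. At E11.5, where all 4 libraries were under 0.3 FPKM, the log2 difference was 0.27 (SE 0.15, adjusted p = 0.109) although the ratio of means was 5.13, and the call depended on the setting: a pseudocount of 0.1 gave 1.29 (adjusted p = 0.000641), one of 0.5 gave 0.48 (adjusted p = 0.0284), and a fit of the E11.5 libraries alone called the same 0.27 (adjusted p = 0.00946). The widening of the difference from E11.5 to E15.5, 0.68 (SE 0.21, adjusted p = 0.0151), turned to -0.19 (adjusted p = 0.671) with a pseudocount of 0.1 and was 0.55 (adjusted p = 0.0846) with one of 0.5. It was 0.65 (adjusted p = 0.0521) without E11.5 Ebf2-EGFP+ replicate 1 and 0.64 (adjusted p = 0.0549) without E11.5 Ebf2-EGFP- replicate 2, so that its direction is not settled.

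Grm8, a group III receptor with high glutamate affinity (chr6:27275119-28135178, minus strand, with a span of 860060 bases the longest of the 5 genes), was highest in the youngest Ebf2-EGFP+ cells. These gave 1.71 and 1.56 FPKM at E11.5, followed by 0.351 and 0.142 at E13.5, then 0.149 and 0.156 at E15.5. Ebf2-EGFP- libraries gave 0.168 and 0.332, 0.251 and 0.111, and 0.0297 and 0.0455 at the 3 stages. The E11.5 Ebf2-EGFP+ libraries stood above all other libraries, and the populations overlapped at E13.5.

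The Grm8 difference was 1.08 (SE 0.11, adjusted p = 5.75e-06) at E11.5, a ratio of 6.55, and 0.08 (95% confidence interval -0.18 to 0.33, adjusted p = 0.562) at E13.5. At E15.5 the log2 difference of 0.15 (95% confidence interval -0.10 to 0.40, adjusted p = 0.272) was not called although the ratio of means was 4.06, both levels being under 0.2 FPKM. The difference narrowed by a change of -0.93 (SE 0.16, adjusted p = 0.000597) from E11.5 to E15.5. Grm8 fell by 1.09 (SE 0.11, adjusted p = 1.51e-05) from E11.5 to E13.5 in Ebf2-EGFP+ cells, and the next step was -0.11 (adjusted p = 0.485). In Ebf2-EGFP- cells the change from E13.5 to E15.5 was -0.18 (adjusted p = 0.176). It was called with a pseudocount of 0.1 (-0.99, adjusted p = 0.0358). An exon of Grm8 holds the microRNA gene Mir592 on the same strand, with 96 shared bases, and reads there would count for either.

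Grm4, the other group III receptor and one found at parallel fibre endings in the cerebellum (chr17:27422387-27521403, minus strand), was the only one of the 5 with a mean that was higher in Ebf2-EGFP- cells at any stage. Ebf2-EGFP+ cells gave 1.05 and 0.959 FPKM at E11.5, 0.229 and 0.165 at E13.5, then 1.30 and 1.29 at E15.5. Ebf2-EGFP- cells gave 1.02 and 1.39 at E11.5, 0.397 and 0.493 at E13.5, then 0.472 and 0.294 at E15.5. The populations overlapped at E11.5, the Ebf2-EGFP- libraries were the higher at E13.5, and the Ebf2-EGFP+ libraries at E15.5.

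At E15.5 the Grm4 difference was 0.73 (SE 0.12, adjusted p = 0.000396), a 3.38-fold ratio. At E11.5 it was -0.13 (SE 0.12, adjusted p = 0.318), and its sign was lost under median-of-ratios scaling, which gave 0.00. The value at E13.5, -0.27 (SE 0.12, adjusted p = 0.0602), was called with a pseudocount of 0.5 (-0.44, adjusted p = 0.035) or 0.1 (-0.88, adjusted p = 0.0152), in a fit of the E13.5 libraries alone (adjusted p = 0.0386), and also when either E11.5 Ebf2-EGFP- library was left out (adjusted p = 0.0495 and 0.0481). From E11.5 to E13.5 Grm4 fell in both populations, by 0.74 (SE 0.12, adjusted p = 0.000359) in Ebf2-EGFP+ and by 0.61 (SE 0.12, adjusted p = 0.00138) in Ebf2-EGFP- cells. Only the Ebf2-EGFP+ cells then showed a called rise, of 0.94 (SE 0.12, adjusted p = 0.0002), against -0.07 (95% confidence interval -0.33 to 0.20, adjusted p = 0.654) in Ebf2-EGFP- cells. The change of the difference from E11.5 to E15.5 was 0.87 (SE 0.17, adjusted p = 0.00133).

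**Figure D1:**
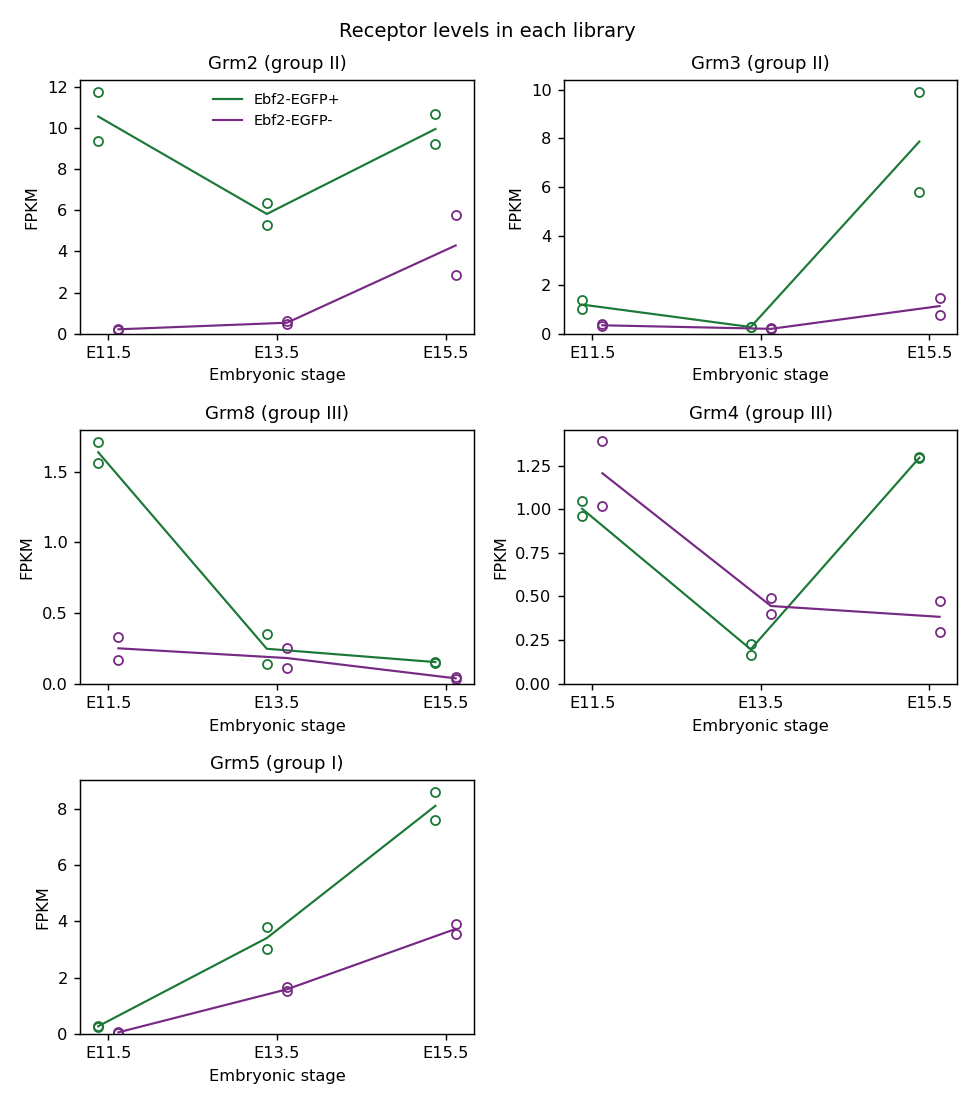
FPKM (vertical axis, linear, a separate range for each gene) of the 5 receptors by stage (horizontal axis), with a circle for each library and lines through the mean of the 2 libraries of Ebf2-EGFP+ (green) and Ebf2-EGFP- (purple) cells. Grm8 starts high and drops in Ebf2-EGFP+ cells, Grm5 climbs in both populations, Grm3 rises at E15.5 to 5.82 and 9.92 FPKM, and Grm2 dips at E13.5 while the Ebf2-EGFP- level reaches 2.83 and 5.75 at E15.5.

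Counted together, 3 of 5 receptors were higher in Ebf2-EGFP+ cells at E11.5 (Grm2, Grm3 and Grm8), where 36.8% of all listed genes were called higher and 44.9% lower. At E13.5 it was 2 of 5 (Grm2 and Grm5, with 32.1% of listed genes higher and 43.5% lower), and at E15.5 it was 4 of 5, all but Grm8 (25.8% higher and 31.6% lower). No receptor was called lower by limma at any stage, and at an unadjusted p under 0.05 the number lower was 0 at E11.5, 1 at E13.5 (Grm4) and 0 at E15.5. The median difference of the 5 was 0.70, 0.09 and 0.94 at the 3 stages, against -0.19, -0.19 and -0.11 over all listed genes. Because the table was selected on differences between the populations, neither set of shares estimates that of all expressed genes.

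**Figure D2:**
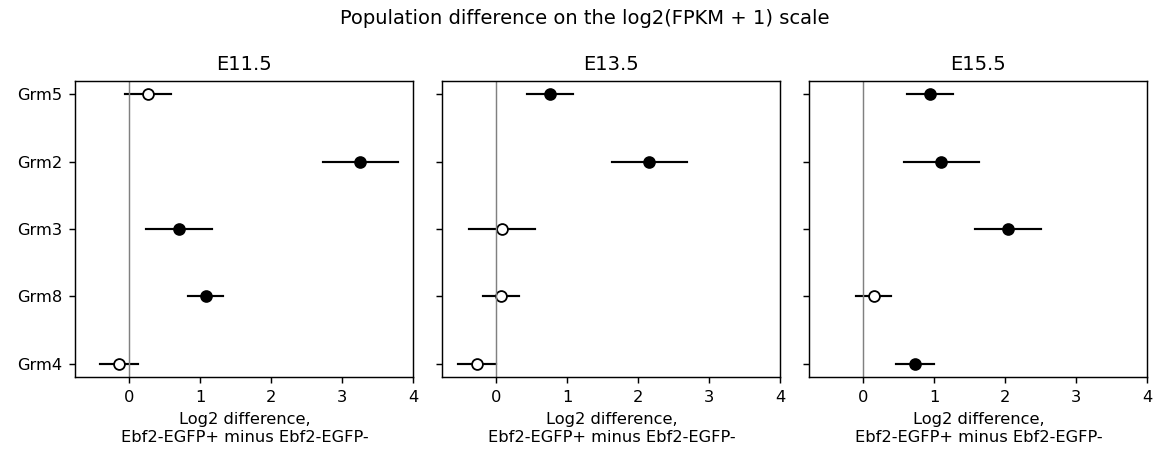
Difference between Ebf2-EGFP+ and Ebf2-EGFP- cells for each receptor at each stage (horizontal axis, log2(FPKM + 1) scale), with 95% confidence intervals of the limma fit as bars and filled points where the adjusted p was under 0.05. Grm2 moves left from 3.26 to 1.11 over the stages, while Grm3 jumps to 2.04 at E15.5.

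Within Ebf2-EGFP+ cells, all 5 receptors were called from E11.5 to E13.5, 4 of them lower (36.1% of listed genes were lower) and Grm5 alone higher (21.8% higher), with a median change of -0.76 against -0.20 over all listed genes. Cajal-Retzius, radial glia, cell cycle, intermediate progenitor, subplate, meninges or fibroblast, interneuron and erythroid markers also had a lower summed FPKM after this step. Cortical plate, endothelial and microglia or macrophage markers had a higher one, and the part of any list in the receptor changes was not tested. From E13.5 to E15.5, 4 were called higher (Grm2, Grm3, Grm4 and Grm5, with 24.6% of listed genes higher, 17.3% lower), with a median of 0.94 against 0.03. In Ebf2-EGFP- cells the first step had Grm5 higher (26% of listed genes higher) and Grm4 lower (33.5% lower), with a median of -0.08 against -0.14. The second step had Grm2, Grm3 and Grm5 higher (28.8% higher, 34.8% lower), with a median of 0.82 against -0.10. In the main limma fit no receptor was lower in the second step of either population, also at an unadjusted p under 0.05. With a pseudocount of 0.1, limma called Grm8 lower over that step in Ebf2-EGFP- cells (-0.99, adjusted p = 0.0358).

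All 5 receptors had a called change of the population difference from E11.5 to E15.5, 3 upward (Grm3, Grm4 and Grm5, with 32% of listed genes) and 2 downward (Grm2 and Grm8, with 27.7%), with the limits on Grm3 and Grm5 given above. In each of groups II and III, 1 gene went upward and the other downward. The stage changes and the population differences draw on the same libraries and are not separate lines of evidence.

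Median-of-ratios scaling of the libraries raised the median log2 difference of all listed genes by 0.23, 0.26 and 0.18 at the 3 stages, and the first-step changes by 0.19 in Ebf2-EGFP+ and 0.16 in Ebf2-EGFP- cells and the second-step change in Ebf2-EGFP- cells by 0.11. For the first step in Ebf2-EGFP+ cells, the share of higher genes among those called went from 37.6% to 48.1%. For the population differences of the 3 stages in order it was 45%, 42.4% and 45% as deposited and 49.8%, 52% and 54.7% when scaled, so that the majority of called genes turned at the later stages. The receptor counts stayed at 3, 2 and 4 under this scaling, and in the first step of Ebf2-EGFP+ cells 4 in place of 5 receptors were called, without Grm2.

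The order of the receptors changed with stage and population. Among the Ebf2-EGFP+ libraries of E11.5 the order was Grm2 (mean 10.6 FPKM), Grm8 (1.64), Grm3 (1.19), Grm4 (1.00) and Grm5 (0.268), and only the neighbours Grm3 and Grm4 overlapped. At E13.5 it was Grm2 (5.83) and Grm5 (3.41), each apart from the next, with Grm3, Grm8 and Grm4 below 0.3 and overlapping. At E15.5 Grm2 (9.97), Grm5 (8.12) and Grm3 (7.87) led, and the libraries of Grm3 overlapped those of both Grm5 and Grm2, followed by Grm4 (1.30) and Grm8 (0.152), each apart. Set among all listed genes of the group, Grm2 in E11.5 Ebf2-EGFP+ cells lay above 61.8% of them, and the median listed gene was at 6.41 FPKM.

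Ebf2-EGFP- cells were led by Grm4 at E11.5 (mean 1.21 FPKM), where every other receptor was under 0.4, by Grm5 at E13.5 (1.58), and by Grm2 (4.29) and Grm5 (3.73) at E15.5, which overlapped. At E13.5 the neighbours Grm2 and Grm4 overlapped, as did Grm3 and Grm8.

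Summed over the 5 genes, receptor FPKM in Ebf2-EGFP+ cells was 13.7 and 15.6 at E11.5, 11.01 and 8.89 at E13.5, then 26.6 and 28.2 at E15.5. The sum in Ebf2-EGFP- cells was 1.75 and 2.35, 2.83 and 3.03, and 7.66 and 11.49. Ebf2-EGFP+ cells were above Ebf2-EGFP- cells at each stage, and the Ebf2-EGFP+ libraries of E13.5 were below the highest Ebf2-EGFP- library of E15.5.

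The make-up of this sum changed with stage. Group II receptors made up 78.2 to 82.0% of it in Ebf2-EGFP+ cells at E11.5, then 60.3 to 62.5% at E13.5, and 62.2 to 67.9% at E15.5. As parts of the whole sum, Grm3 took 6.46 to 9.94% at E11.5 and 21.9 to 35.1% at E15.5, while Grm2 went from 68.2 to 75.5% to 32.7 to 40.3%. Grm5 supplied 1.79 to 1.86% at E11.5, 34.1 to 34.4% at E13.5, then 27.0 to 32.4% at E15.5. In Ebf2-EGFP- cells group III held the largest part at E11.5 (67.6 to 73.5%) and Grm5 at E13.5 (53.5 to 54.7%), and at E15.5 group II held 47.1 to 63.0% and Grm5 34.1 to 46.4%.

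**Figure D3:**
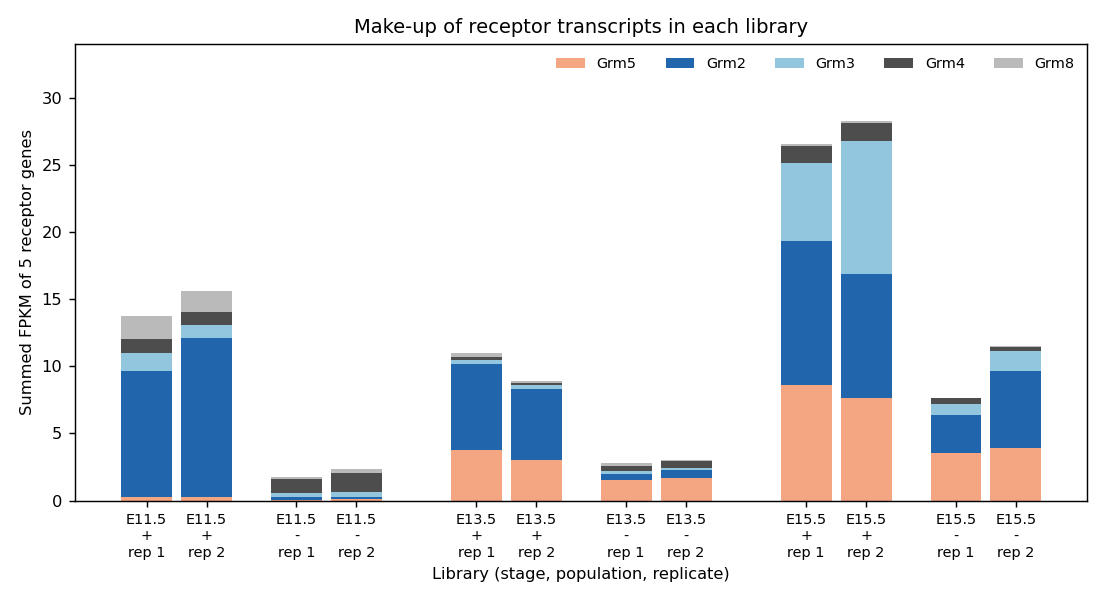
Stacked bars of FPKM (vertical axis, linear from 0) of the 5 receptors in each of the 12 libraries, grouped by stage and population, in light red for Grm5, shades of blue for group II and shades of grey for group III. The Ebf2-EGFP+ bars reach 13.7 to 15.6 at E11.5 with Grm2 as the main part, and 26.6 to 28.2 at E15.5 with Grm2, Grm3 and Grm5.

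The genes around the receptors in their pathway were taken in lists by role and counted against the shares of all listed genes given above. Those shares belong to the fit without scaling, and no matching shares are given for the scaled counts below. Under median-of-ratios scaling, higher genes made up 49.8%, 52% and 54.7% of all called genes at the 3 stages. Without scaling they made up 45%, 42.4% and 45%. Whether a larger scaled count of a list goes beyond this shift of the whole table was not tested. The first list held Homer and other postsynaptic scaffold genes (10 of 14 in the table), which tether group I receptors. In it 7, 7 and 6 were higher in Ebf2-EGFP+ cells at the 3 stages and 1 was lower at each. The median differences were 0.97, 0.75 and 0.62. Scaling by median of ratios gave 9, 7 and 7 higher and 1 lower at each stage. Dlg2, which encodes PSD-93, had means of 4.01 against 0.510 FPKM at E11.5 and 25.0 against 11 at E15.5, with differences of 1.73, 2.01 and 1.14 (adjusted p = 5.82e-05, 3.79e-05 and 0.00243). Shank1, a master scaffold of the postsynaptic density that binds Homer, differed by 1.36, 1.92 and 0.97 (adjusted p = 0.00104, 0.000137 and 0.0145). Dlgap1, which links Shank proteins to PSD-95, differed by 1.76 at E11.5 (adjusted p = 7.88e-06) and 0.64 at E15.5 (adjusted p = 0.0145), and by 0.04 at E13.5 (adjusted p = 0.85).

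A list of receptor-binding and related proteins (10 of 18) had 8, 6 and 6 genes higher and 1, 1 and 2 lower. Median-of-ratios scaling made these 8, 7 and 6 higher and 1, 1 and 0 lower. Membership of the list, which includes Caln1 and Slitrk1, does not imply direct binding to a receptor. Elfn2, a transsynaptic partner of group III receptors, differed by 1.04, 1.75 and 1.46 (adjusted p = 0.00249, 9.64e-05 and 0.000548), and its mean in Ebf2-EGFP+ cells went from 1.92 FPKM at E11.5 to 16.0 at E15.5. Grasp (tamalin), a scaffold of group I receptors, differed by 1.72 at E11.5 (adjusted p = 5.09e-06) and was not called later (-0.06 and -0.38, adjusted p = 0.758 and 0.0922). Caln1, a neuronal calcium-binding protein, took the reverse course, with -0.08 at E11.5 (adjusted p = 0.679) and 2.2 at E15.5 (adjusted p = 1.94e-06).

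Of the Gq and phospholipase C path of group I receptors (12 of 25), 3 genes were higher and 1 lower at E11.5, followed by 8 and 2 at E13.5, then 7 and 1 at E15.5, with medians of 0.20, 0.63 and 0.58. Under median-of-ratios scaling 4, 8 and 7 were higher and 1 was lower at each stage. Plcb1, a phospholipase C isoform abundant in the forebrain, differed by 2.36 at E11.5 (adjusted p = 7.3e-07), 0.69 at E13.5 (adjusted p = 0.00454) and 0.11 at E15.5 (adjusted p = 0.625), as Ebf2-EGFP- cells went from 1.49 to 16.5 FPKM. Prkce, a diacylglycerol-activated kinase, reached a mean of 76.7 FPKM in E15.5 Ebf2-EGFP+ cells against 24.8 (1.58, adjusted p = 0.000471), after differences of 0.46 (adjusted p = 0.129) at E11.5 and 2.58 (adjusted p = 1.23e-05) at E13.5. Dgkg, a kinase that removes diacylglycerol, was lower in Ebf2-EGFP+ cells at E13.5 (-0.84, adjusted p = 0.00038) and E15.5 (-1.74, adjusted p = 4.47e-06), with an E15.5 mean of 0.23 against 3.13 FPKM.

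The Gi/o and adenylyl cyclase path of groups II and III (19 of 32) had 11, 13 and 12 genes higher and 3, 3 and 2 lower. The medians were 0.78, 0.82 and 0.65. Median-of-ratios scaling gave 13, 15 and 13 higher and 3, 3 and 2 lower. Adcy1, a calcium-stimulated adenylyl cyclase that Gi can inhibit, differed by 0.91, 2.72 and 2.98 (adjusted p = 0.00259, 3.81e-06 and 2.19e-06), and its mean in Ebf2-EGFP+ cells went from 2.55 to 35.4 FPKM. Kcnj5, a subunit of the G protein-gated potassium channels, was at 5.01, 2.31 and 3.42 FPKM in Ebf2-EGFP+ cells and at means of 0.0305, 0.0183 and 0.0261 in Ebf2-EGFP- cells (differences of 2.54, 1.70 and 2.09, adjusted p = 2.11e-07, 6.81e-06 and 2.25e-06). Gng3, a neuronal G protein gamma subunit, differed by 1.77 at E11.5 (adjusted p = 1.6e-06) and was not called later (0.35 and -0.02, adjusted p = 0.0581 and 0.911).

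Regulators that end receptor signalling (13 of 23) were split, with 7, 6 and 5 higher and 1, 4 and 3 lower. Rgs4, a GTPase-activating protein for Gi and Gq, differed by 0.76, 1.26 and 2.86 at the 3 stages (adjusted p = 0.03565, 0.00279 and 1.91e-05). Its FPKM in the E15.5 Ebf2-EGFP+ libraries was 15 and 35.0. Rgs3 was lower at E13.5 (-1.96, adjusted p = 9.43e-06) and E15.5 (-1.23, adjusted p = 0.000289), and Rgs5, better known from pericytes, was lower at E11.5 (-0.73, adjusted p = 0.029) and E13.5 (-2.11, adjusted p = 5.42e-05). Under median-of-ratios scaling this list had 10, 7 and 8 genes higher and 0, 4 and 2 lower.

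For the supply and uptake of glutamate (8 of 17), 4 genes were higher at each stage and 2, 2 and 3 lower. When scaled by median of ratios, 6, 4 and 4 were higher and 2 lower at each stage. Slc17a6, the vesicular glutamate transporter of early neurons, was at 49.3 and 58.0 FPKM in E11.5 Ebf2-EGFP+ cells and 0.622 and 1.15 in Ebf2-EGFP- cells (4.87, adjusted p = 5.66e-08), and was not called later (-0.13 and 0.26, adjusted p = 0.655 and 0.385). Slc17a7, its cortical counterpart, differed by 4.39, 1.75 and 1.40 (adjusted p = 1.65e-07, 0.000133 and 0.000999). The glial glutamate transporter Slc1a3, a radial glia gene, was lower at each stage (-3.17, -3.13 and -2.50, adjusted p = 1.56e-07, 1.42e-06 and 2.30e-06), at 2.70 against 20.1 FPKM at E15.5. Among other class C receptors (3 of 13), Gabbr1 and Gabbr2, the subunits of the GABA-B receptor, were higher at each stage, by 1.74, 1.40 and 0.83 (adjusted p = 7.34e-06, 6.33e-05 and 0.00317) for Gabbr1 and by 1.09, 1.03 and 1.04 (adjusted p = 0.000536, 0.00111 and 0.00167) for Gabbr2. Gprc5b, an orphan receptor, was lower at E13.5 (-1.11, adjusted p = 0.000319) and E15.5 (-1.21, adjusted p = 0.000301), with -0.11 (adjusted p = 0.609) at E11.5.

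**Figure D4:**
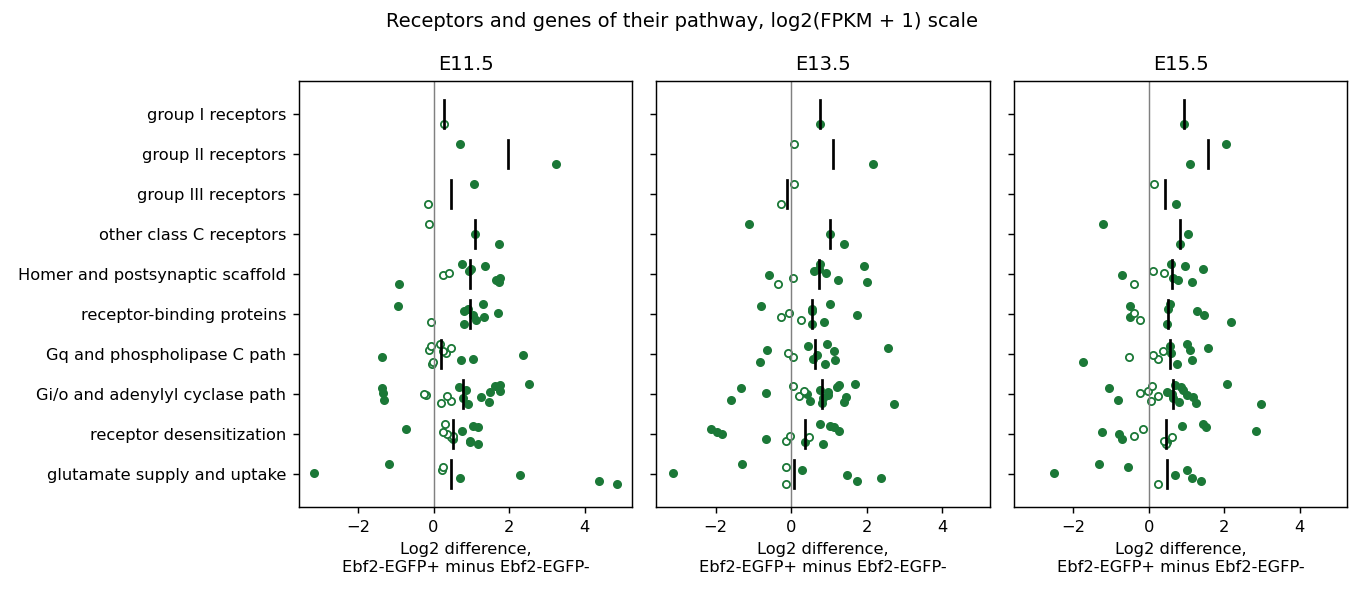
Difference between Ebf2-EGFP+ and Ebf2-EGFP- cells (horizontal axis, log2(FPKM + 1) scale) at each stage for the receptors and for the genes of 7 pathway lists, with a point for each gene, filled where the adjusted p was under 0.05, and a bar at the median of each list. The scaffold list keeps a positive median (0.97, 0.75 and 0.62), whereas that of the Gq and phospholipase C list goes from 0.20 at E11.5 to 0.63 at E13.5.

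The genes whose course over the 12 libraries was most like that of each receptor were found by Pearson's r on log2(FPKM + 1), as a description of 12 libraries that share 6 groups. Grm2 was most like Shisa7, an auxiliary protein of neurotransmitter receptors (r = 0.986), Apc (r = 0.984) and Mycbp2 (r = 0.98). Grm3 was most like Akap7, an anchor of protein kinase A (r = 0.97), Cacng5, an auxiliary subunit of AMPA receptors (r = 0.964), and Ache, which encodes acetylcholinesterase (r = 0.958).

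Grm5 was most like Fbxo9, Gfra4 and Kptn (r = 0.987, 0.986 and 0.982), and Grm4 most like Whrn, Lrrc16a and Plxdc2 (r = 0.968, 0.948 and 0.939). Grm8 was most like Uncx, a homeobox factor (r = 0.99), Chrna3, a nicotinic receptor subunit (r = 0.987), and Rasgrp1 (r = 0.979), all of which had their highest mean in E11.5 Ebf2-EGFP+ cells. Among the receptors themselves, r was 0.62 for Grm2 with Grm3, 0.60 for Grm3 with Grm5 and -0.56 for Grm5 with Grm8.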

How the data were processed

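Messenger RNA of FACS-sorted Ebf2-EGFP+ and Ebf2-EGFP- cells was measured in 12 libraries, 2 per population at each of 3 stages, grouped by their labels. The authors aligned the reads with TopHat 2.0.8b to mm10, the same assembly as GRCm38, and computed FPKM with Cufflinks 2.2.0, and the deposited table holds the FPKM of 4859 coding genes that they selected as differential, beside their own fold and p-value columns, which were not used. A second table of long noncoding RNAs was not used here. FPKM was not turned back into fragment counts. For genes below 0.15 FPKM, the ratio between the replicates was compared with a fitted grid of ratios of whole numbers from 1 to 4. Depending on the group, 37.1 to 51.1% of these ratios lay within 1% of the grid. No chance level was computed, so these shares cannot decide whether counts are recoverable. Depth per library is not given in the sources used here.

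The scale was log2(FPKM + 1), fitted by limma 3.58.1 (R 4.3.3) in 1 fit of 12 libraries as 6 groups with a trend in the moderated variance, two-sided, with Benjamini-Hochberg adjustment over all 4859 genes in each of 8 comparisons. A trial of the fit on simulated data drew independent normal errors with the variances of the fit itself. Such data hold no deviation shared between libraries, so the trial cannot speak to the effect of one. Replicate numbers are shared by the populations of a stage, and libraries with the same number deviated together from the means of their groups (r across genes of 0.43, 0.53 and 0.43), so that the numbers were taken as pairs in an alternative fit with a replicate block. Other alternatives were pseudocounts of 0.1 and 0.5, median-of-ratios scaling, a mean of at least 1 FPKM, moderation without trend, the compared groups only, a threshold of 0.01 and leaving out each library in turn. The receptors were named by rule, with the 3 genes most like each (among genes with a mean of at least 1 FPKM) and, in each pathway list, at most 3 called genes with the largest population difference. Some genes of the receptor family and of the lists are not reported here, and counts and sums leave them out. The receptors and lists were chosen with earlier results of these data known. Gene positions are from GENCODE M21, promoters from RefSeq. P-values of the main fit rest on 1 spread per gene, pooled over the 2 preparations of all 6 groups and moderated across genes.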

Additional observations from a re-analysis of the deposited data

Results flagged for a closer look

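The difference between Ebf2-EGFP+ and Ebf2-EGFP- cells changed from E11.5 to E15.5 for each of the 5 receptors by limma's interaction contrast on the log2(FPKM + 1) scale. It moved downward for Grm2 (-2.15) and Grm8 (-0.93) and upward for Grm3 (1.34), Grm4 (0.87) and Grm5 (0.68). The adjusted p was 0.000341 for Grm2, 0.00284 for Grm3, 0.00133 for Grm4, 0.0151 for Grm5 and 0.000597 for Grm8. Of all 4859 listed genes, 32% moved upward and 27.7% downward by the same test. For Grm5 the direction turned with a pseudocount of 0.1, and its ratio of mean FPKM was 5.13 at E11.5 and 2.17 at E15.5. The change of Grm3 was not called with that pseudocount (1.17, adjusted p = 0.0646). With 2 libraries in a group, no single library could be judged to stand apart from its group.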

How the results depend on the processing

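Of the 40 differences of a receptor in a comparison, 28 were called and 12 were not, and 21 of the called ones kept their call and sign under every alternative that gave a value. With the replicate block, none of the 20 values it can give changed its call, and the count of receptors was 3, 2 and 4 at the 3 stages and 5 for the change from E11.5 to E15.5. The block together with median-of-ratios scaling, chosen after seeing the data, and the scaling alone turned the E11.5 difference of Grm4 to 0.00 (0.0012), and the interaction of Grm5 turned to -0.19 with a pseudocount of 0.1. Among values that kept their call, that pseudocount moved 18 by over 1.5 times, all to a larger size, since it weighs low levels more, and brought the count for the change from E11.5 to E15.5 from 5 receptors to 3. A minimum mean of 1 FPKM also left 3 there, 3 of 5 in the first step of Ebf2-EGFP+ cells and 1 of 2 in that of Ebf2-EGFP- cells, since Grm4 and Grm8 drop out of it. From E13.5 to E15.5 in Ebf2-EGFP+ cells 2035 genes were called, and 1254 at an adjusted p under 0.01. With each library left out in turn, that count ran from 1247 (without E13.5 Ebf2-EGFP+ replicate 1) to 2131, and the 3089 genes of Ebf2-EGFP- cells over the same step from 1962 (without E13.5 Ebf2-EGFP- replicate 1) to 3129. The same omissions gave ranges across 0 for 4 differences that were not called, from -0.23 to 0.0128 for Grm8 in the second step of Ebf2-EGFP+ cells, from -0.16 to 0.0273 for Grm4 in that of Ebf2-EGFP- cells, and for Grm8 a range of -0.0456 to 0.20 at E13.5 and of -0.18 to 0.0135 in the first step of Ebf2-EGFP- cells. The fit of the compared groups only called 3 differences more, of Grm5 at E11.5, of Grm4 at E13.5 and of Grm2 in the first step of Ebf2-EGFP- cells (0.34, adjusted p = 0.0163). The depth of each library is not given in the sources used here, and the pseudocount changed calls both at levels under about 0.3 FPKM, as of Grm5 at E11.5, and at higher ones, as of Grm2 in Ebf2-EGFP+ cells.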
